A study of Mus musculus with 33 samples.

Results

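The 10 genes described here, which macrophages use to take up, store, break down and export lipid, were followed in immune cells sorted from mouse pancreatic tumours after radiotherapy and interleukin 12 (IL-12). They were Lpl, Fabp4 and Fabp5 (uptake and transport), Plin2 and Lipa (storage and breakdown), Apoe, Abca1 and Abcg1 (export) and the nuclear receptors Pparg and Nr1h3. The 10 genes were taken by gene name from 53735 names in each of 9 deposited tables. All 10 had a measured level in each population, and all 10 had an adjusted p in every table of the 2 myeloid populations.

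The study placed KCKO pancreatic ductal adenocarcinoma cells in the pancreas of C57BL/6 mice and sorted 3 populations from the tumours. Tumour-associated macrophages (TAM) were CD45+CD11b+Ly6G-F4/80+ with moderate Ly6C, inflammatory monocytes (IM) were CD45+CD11b+Ly6C+Ly6G-, and CD8 T cells were CD45+CD8+. In each population 4 groups were compared: stereotactic body radiotherapy (SBRT, 4 fractions of 6 Gy on days 6 to 9), IL-12 microspheres without radiation (0.5 µg of IL-12 in 2 mg of beads, into the tumour on day 10), both together (here the combination), and an unirradiated group without IL-12. All groups carried KCKO tumours, and the labels do not say which groups received empty microspheres. The 33 libraries were 3 in every IM and CD8 group, and for TAM 3 after IL-12 but only 2 after SBRT, 2 after the combination and 2 without treatment. The labels do not say that each library came from a separate mouse, so a p-value here reflects library-to-library spread, which may be technical. KCKO is 1 tumour line in 1 mouse strain.

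A macrophage frees fatty acids from lipoproteins with lipoprotein lipase, carries them on fatty acid binding proteins and packs the surplus into lipid droplets. Cholesterol from engulfed cells and lipoproteins is released in the lysosome and exported through membrane transporters to apolipoproteins. A pair of sensors sets the pace of this traffic: PPAR gamma, which responds to fatty acids, and the liver X receptor (LXR) alpha, which responds to oxidised cholesterol. Lipid-rich macrophages are a known feature of tumours and of atherosclerotic plaques.

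The authors' deposited tables give for each gene a mean normalised level over all libraries of a population, a log2 fold change of a treated group over the unirradiated group and the adjusted p of DESeq2's Wald test as run by the authors. They hold no value for a single library, so depth, spread by library and overlap of groups cannot be shown. Where a level per group is given here, it was worked out from the deposited mean level, the group sizes and the 3 fold changes, and carries no error. Those fold changes are shrunken towards 0, so implied levels can lie closer together than the group means, and folds can understate a change. A gene is said to have risen or fallen only where the deposited adjusted p was below 0.05. The ± value, or implied standard error, is the fold change over its Wald statistic. If only the fold change was shrunken, this ratio is not a true standard error. After SBRT, IL-12 and the combination it was 0.18, 0.19 and 0.19 for Lpl in IM, but 0.27, 1.03 and 0.25 for Vcan in TAM. The ± values, the sizes and intervals of differences, and the tests of TAM against IM rest on this ratio. Macrophage, monocyte and T cell marker sums were each highest in the population sorted for them, but the populations overlapped. A list of 10 macrophage markers summed to between 703484 and 756367 normalised units in the TAM groups and between 267091 and 309520 in the IM groups, while 8 T cell markers summed to at most 1997 in either and to at least 245380 in CD8 cells. The 8 monocyte markers summed to between 239227 and 260575 in IM groups, below the IM macrophage sums. They summed to between 50811 and 57529 in TAM groups and between 34833 and 43801 in CD8 groups. The 8 dendritic cell markers summed to between 7662 and 10141 in CD8 groups, and to at most 1299 in IM and 990 in TAM. In these bulk samples, fewer cells of a type and less RNA per cell cannot be told apart.

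Apoe, the main apolipoprotein secreted by macrophages, stood far above the other 9 genes in both myeloid populations. Per kb of its principal transcript, Apoe had a mean normalised level of 493407 in TAM and 71359 in IM. Next came Plin2, the coat protein of lipid droplets, with a level per kb of 15040 in TAM and 17711 in IM, and Fabp5, a fatty acid carrier, with 12934 in TAM and 5196 in IM. Lipa, Lpl, Nr1h3, Abca1 and Abcg1 followed between 885 and 2630 per kb in TAM, and between 596 and 2683 in IM. Pparg and Fabp4 were lowest in both, at 265 and 307 per kb in TAM and 174 and 129 in IM.

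Of the 10 genes, 8 had a higher mean level in TAM than in IM, and Lpl and Plin2 had a lower one. The ratio of the TAM level to the IM level was 6.91 for Apoe, 3.42 for Nr1h3, 2.71 for Abca1, 2.49 for Fabp5 and 2.38 for Fabp4, and between 1.39 and 1.53 for Lipa, Pparg and Abcg1. For Plin2 the ratio was 0.849 and for Lpl 0.794. Each population was normalised on its own, so these ratios are a description and were not tested. Lpl stood at 132 normalised units in CD8 cells, against 8765 in TAM and 11042 in IM. Positions are of GENCODE M21 on build GRCm38.

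**Figure D1:**
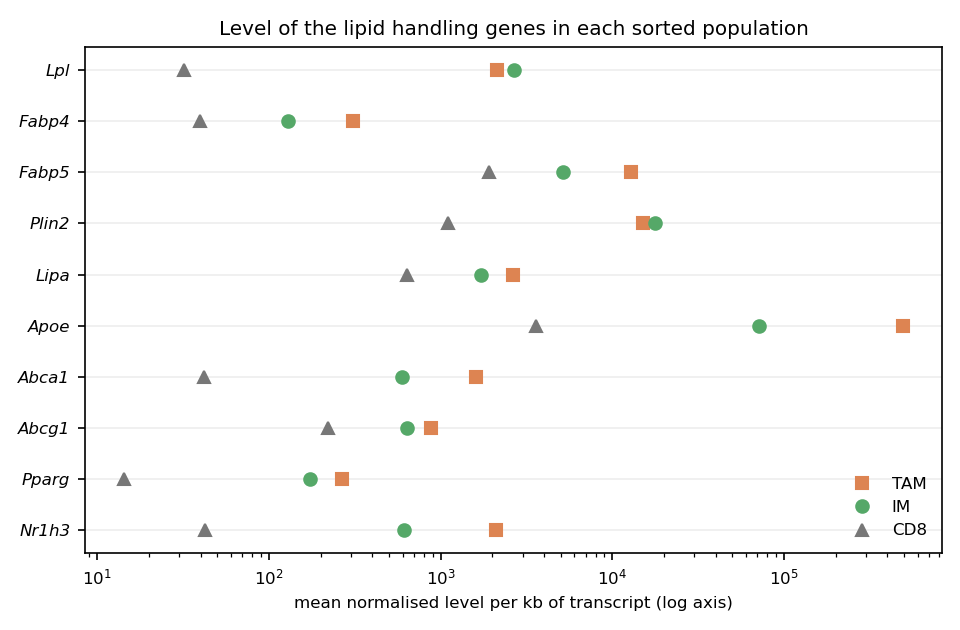
Mean normalised level per kb of principal transcript (log axis) of the 10 lipid handling genes, 1 symbol per sorted population. Apoe is highest in all 3 populations, at 493407 in TAM, 71359 in IM and 3597 in CD8 cells, and only Lpl and Plin2 lie lower in TAM than in IM.

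Across the 60 tests of the 10 genes in TAM and IM, 4 passed, and 2 of them were Lpl. In TAM, 1 of 10 was called after SBRT, when 2.08% of all genes tested were called, 0 of 10 after IL-12 (0.935% of all genes) and 1 of 10 after the combination (4.21%). In IM, 0 of 10 were called after SBRT (0.519% of all genes), 1 of 10 after IL-12 (3.24%) and 1 of 10 after the combination (6.72%). Where the authors' DESeq2 test called 0 genes, an unadjusted p was below 0.05 for 3 of 10 after IL-12 in TAM and for 1 of 10 after SBRT in IM. The share of all genes below that unadjusted cut in the authors' test is not given, here or for other such counts below. The median log2 fold change of the 10 genes in TAM was -0.18 after SBRT, -0.15 after IL-12 and -0.12 after the combination, beside medians of all genes tested between -0.01 and 0.0036. In IM the medians were -0.18 after SBRT, 0.05 after IL-12 and -0.06 after the combination, beside -0.02 for all genes tested in each. The 3 comparisons of a population share their unirradiated libraries.

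**Figure D2:**
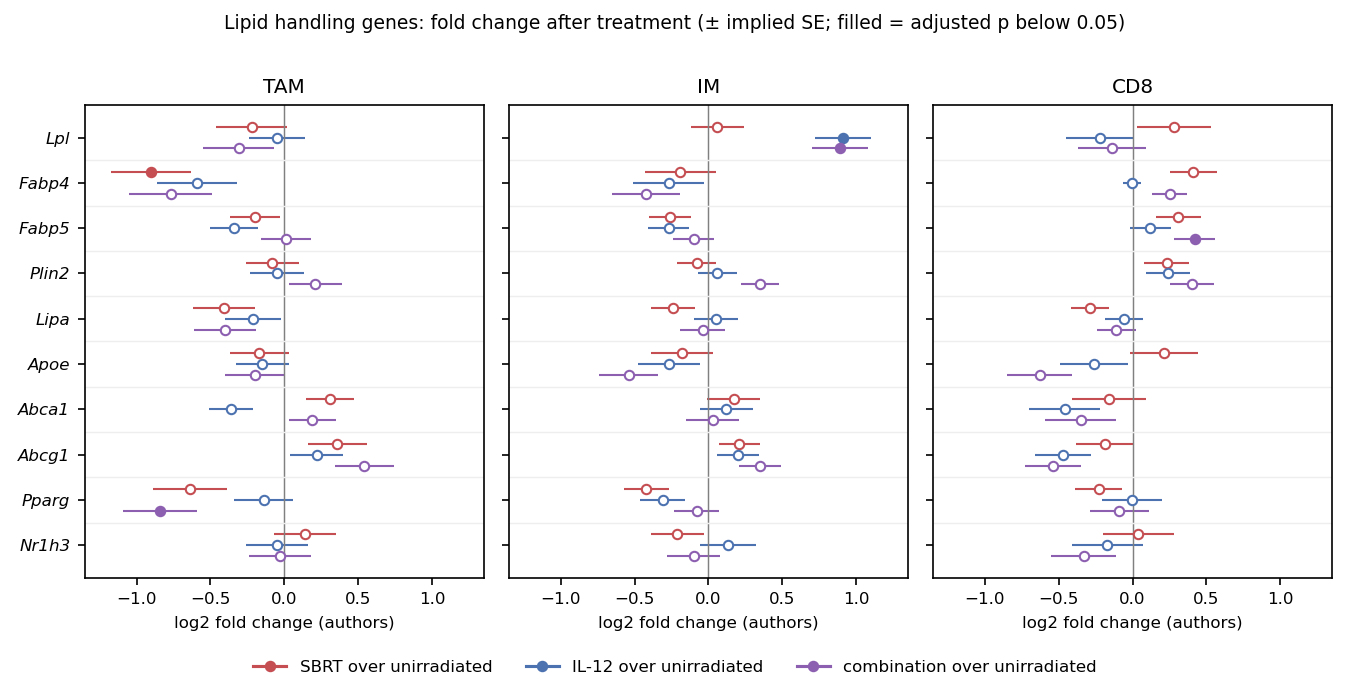
Log2 fold change over the unirradiated group (horizontal axis, the authors' values) of each gene in TAM, IM and CD8 cells, with bars of 1 implied standard error and filled symbols for an adjusted p below 0.05. Lpl in IM stands at 0.91 after IL-12 and 0.89 after the combination, while its 3 values in TAM are at or below -0.05.

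Lpl, which encodes lipoprotein lipase (chromosome 8, 68880491 to 68907448, plus strand), rose in inflammatory monocytes wherever IL-12 was given. Its implied level in IM was 7968 after SBRT, 14396 after IL-12 and 14154 after the combination, against 7649 in the unirradiated group. The IL-12 and combination groups therefore stood near each other, and the SBRT group stood near the unirradiated one. Lpl rose 1.88-fold after IL-12 in the authors' deposited table (log2 fold change 0.91 ± 0.19, adjusted p = 1.1e-04). It rose 1.85-fold after the combination in the authors' deposited table (0.89 ± 0.19, adjusted p = 9.4e-05), whereas the value after SBRT was 0.06 ± 0.18 (adjusted p = 0.994).

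In TAM, Lpl was not called in any comparison. Its implied level there was 8227 after SBRT, 9267 after IL-12 and 7737 after the combination, against 9577 in the unirradiated group, so all treated groups were at or below that group. The deposited log2 fold changes in TAM were -0.22 ± 0.24 after SBRT, -0.05 ± 0.19 after IL-12 and -0.31 ± 0.24 after the combination. A stretch of 5.93% of the 4115 bases of the Lpl transcript matched transcripts of 44 other genes at 95% identity or more over at least 100 bases, so a small part of its reads could be split by the counting.

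Other markers moved with Lpl in IM. Of 8 monocyte markers, the authors' deposited table called 2 higher and 4 lower after IL-12, and 2 higher and 4 lower after the combination, with medians over the 8 of -0.35 and -0.43. Ly6c2 (1.16 after IL-12, 1.10 after the combination) and Plac8 (0.44 and 0.44) were higher in the authors' deposited table. In the same deposited table F13a1 (-0.84 and -1.03), Vcan (-0.72 and -1.23), Chil3 (-0.62 and -0.98) and Ccr2 (-0.46 and -0.58) were lower. The 8 together summed to 260575 after SBRT, 254285 after IL-12 and 239227 after the combination, against 251798 in the unirradiated group. Of 10 macrophage markers, 1 was called higher and 1 lower after IL-12, and 3 higher and 1 lower after the combination. C1qb rose in the authors' deposited table by 0.53 after IL-12 and 0.71 after the combination, and Mrc1 fell after IL-12 (-0.998) and after the combination (-0.99). The macrophage list summed to 298205 after SBRT, 289317 after IL-12 and 309520 after the combination, against 267091 in the unirradiated IM group. Of 8 dendritic cell markers, Cd209a (-1.76 after IL-12, -2.31 after the combination) and Flt3 (-1.36 and -1.46) fell in the authors' deposited table, and Clec9a rose after the combination (0.73). The 8 summed to 1181 after SBRT, 994 after IL-12 and 1006 after the combination, against 1299 in the unirradiated group. Of 8 neutrophil markers, 1 was called, Mmp8, which fell after IL-12 (-0.95) and after the combination (-1.04) in the authors' deposited table. The part of these shifts in the Lpl result was not tested.

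Adipocytes and capillaries are other known sites of the lipoprotein lipase protein. The 8 adipocyte markers summed in IM to 33.1 after SBRT, 31.9 after IL-12 and 34.3 after the combination, against 34.8 in the unirradiated group, with 2 of the 8 at 0, Adipoq among them. The 9 endothelial markers summed in IM to 995 after SBRT, 1142 after IL-12 and 1266 after the combination, against 830 in the unirradiated group. Of those 9, the authors' deposited table called Pecam1 (0.72, adjusted p = 0.00696) higher after the combination, and Vwf had a value of 0.63 (adjusted p = 0.0782). Values of 0.14 for Cdh5, 0.07 for Kdr, 0.06 for Egfl7 and -0.49 for Esam in that comparison did not pass. Mean levels of the 9 ranged between 0.101 normalised units for Tek and 749 for Pecam1, with Vwf at 172, Kdr at 91 and Cdh5 at 17, and 4 of the 9 were below 10. The part of endothelial RNA in the Lpl result was not tested.

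**Figure D3:**
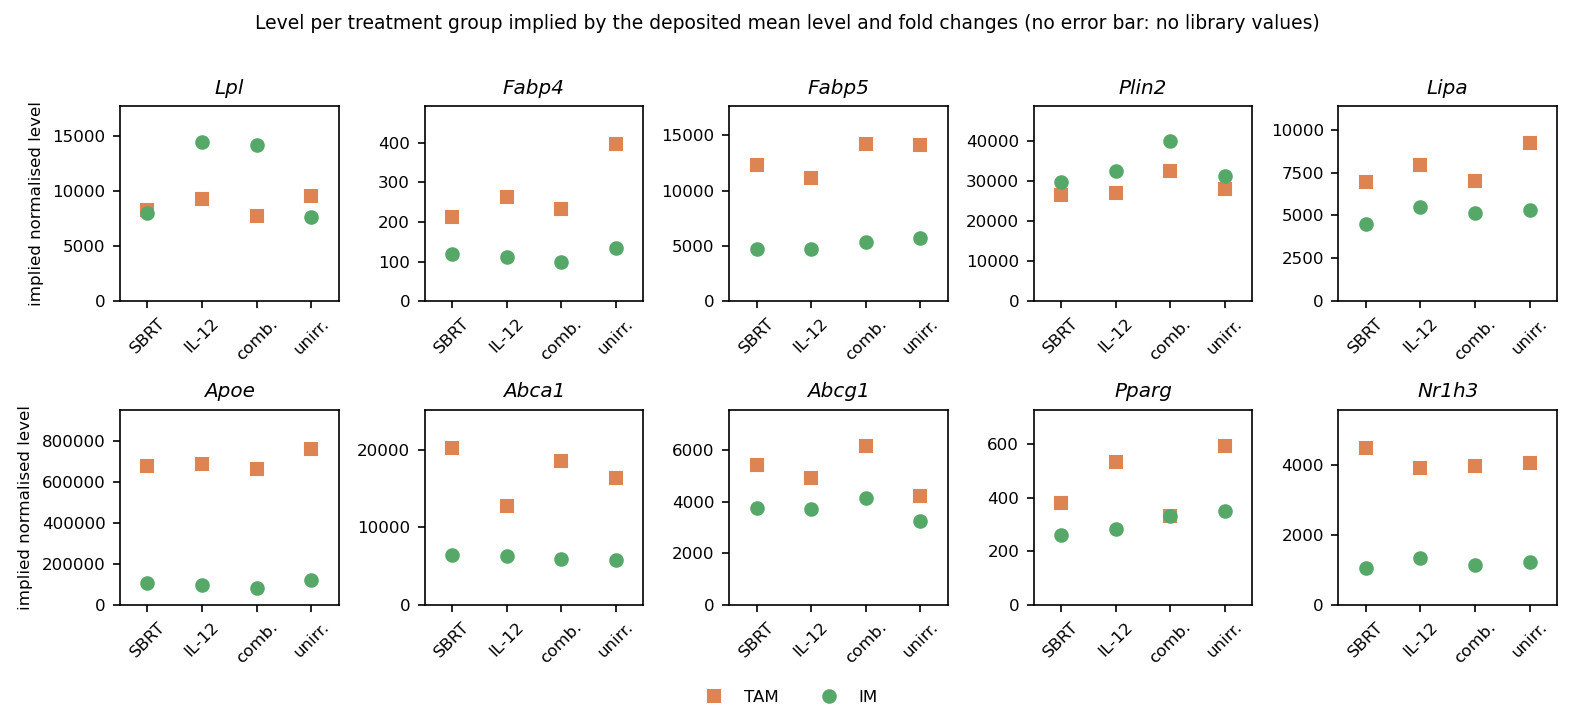
Level of each gene in the SBRT, IL-12, combination and unirradiated groups of TAM (squares) and IM (circles), implied by the deposited mean level and fold changes, in normalised units on axes that start at 0. Lpl in IM stands at 14396 after IL-12 and 14154 after the combination, and at 7968 or less in the other 2 groups.

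Fabp4, the fatty acid binding protein shared by adipocytes and macrophages (chromosome 3, 10204088 to 10208576, minus strand), was lower after SBRT in TAM. Its implied level in TAM was 212 after SBRT, 264 after IL-12 and 233 after the combination, against 396 in the unirradiated group, so all 3 treated groups were below it. In the authors' deposited table Fabp4 fell to 0.536 of the unirradiated level after SBRT (-0.90 ± 0.27), with an adjusted p of 0.0498 that lies just inside the threshold. The other deposited values in TAM, -0.59 ± 0.27 after IL-12 (adjusted p = 0.577) and -0.77 ± 0.28 after the combination (adjusted p = 0.103), did not pass. The SBRT call was lost when p was adjusted over every gene with a p (adjusted p = 0.0871) and when the statistics were rescaled to their own spread (0.0664). In IM the 3 deposited values lay between -0.42 and -0.19, and 0 of them passed.

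In the same TAM comparison the deposited values of some monocyte and fibroblast markers also moved. Of 8 monocyte markers, Plac8 (0.98) was called higher and F13a1 (-0.64) lower after SBRT in the authors' deposited table, while the 8 summed to 50811 after SBRT against 53501 in the unirradiated group. Of 8 fibroblast markers, Col1a1 fell by 1.47 after SBRT in the authors' deposited table, and the 8 summed to 1671 after SBRT, 2245 after IL-12 and 1814 after the combination, against 2815 in the unirradiated TAM group. The 8 adipocyte markers summed to between 23.8 and 26.1 in the TAM groups, with 1 of them at 0. The part of these cells in the Fabp4 result was not tested.

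Fabp5, which lies close to Fabp4 on chromosome 3 (10012548 to 10016607, plus strand) and encodes the broadly expressed epidermal type carrier, was not called in TAM or IM. In TAM its implied level was 12317 after SBRT, 11175 after IL-12 and 14220 after the combination, against 14147 in the unirradiated group. The authors' deposited table gave -0.34 ± 0.16 for Fabp5 after IL-12 in TAM (adjusted p = 0.66), and values between -0.27 and -0.10 in IM. The 2 processed pseudogenes, Gm14328 and Gm6166, share 41.3% of the Fabp5 transcript at 95% identity or more, so its counts are uncertain where the counting could split such reads.

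Plin2, the droplet coat protein that shields stored lipid from lipases (chromosome 4, 86648386 to 86670060, minus strand), was highest in the combination group of both myeloid populations without passing the test. The implied level in IM was 29726 after SBRT, 32668 after IL-12 and 39996 after the combination, against 31361 in the unirradiated group. The authors' deposited table gave 0.35 ± 0.13 for the combination in IM (adjusted p = 0.0934) and 0.21 ± 0.18 in TAM (adjusted p = 0.714). The pseudogene Gm12551 shares 13.7% of the Plin2 transcript. Lipa, the lysosomal acid lipase that splits cholesteryl esters (chromosome 19, 34492318 to 34527474, minus strand), was not called in any of the 6 comparisons. In TAM the authors' deposited table gave Lipa -0.41 ± 0.21 after SBRT and -0.40 ± 0.21 after the combination, with adjusted p of 0.493 and 0.383, and in IM its values lay between -0.24 and 0.05.

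The export genes were not called in either myeloid population. Apoe (chromosome 7, 19696109 to 19699188, minus strand) had implied levels in IM of 104237 after SBRT, 98043 after IL-12 and 81362 after the combination, against 118255 in the unirradiated group, so the 3 treated groups lay below it. In the authors' deposited table the Apoe value for the combination in IM was -0.54 ± 0.20 (adjusted p = 0.0934). In TAM the 3 deposited Apoe values lay between -0.20 and -0.15, with implied levels of 675847 after SBRT, 685600 after IL-12 and 662161 after the combination, against 759821 in the unirradiated group.

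Abca1, the transporter that hands cholesterol to lipid-poor apolipoproteins (chromosome 4, 53030787 to 53159895, minus strand), took values of both signs in TAM. Its implied level there was 20323 after SBRT, 12739 after IL-12 and 18644 after the combination, against 16371 in the unirradiated group. The IL-12 group was thus the only one below the unirradiated group, while both irradiated groups were above it. The authors' deposited table gave 0.31 ± 0.16 after SBRT, -0.36 ± 0.15 after IL-12 and 0.19 ± 0.16 after the combination, with adjusted p of 0.518, 0.495 and 0.72. In IM the Abca1 values were between 0.03 and 0.17.

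Abcg1, the transporter that loads cholesterol onto mature lipoprotein particles (chromosome 17, 31057675 to 31117988, plus strand), had a positive value in all 6 myeloid comparisons, and none passed. Its implied level in TAM was 5432 after SBRT, 4929 after IL-12 and 6174 after the combination, against 4237 in the unirradiated group. The authors' deposited table gave 0.54 ± 0.20 for the combination in TAM (adjusted p = 0.097) and 0.35 ± 0.14 for the combination in IM (adjusted p = 0.139).

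Pparg, which encodes PPAR gamma (chromosome 6, 115360951 to 115490399, plus strand), fell after the combination in TAM. Its implied level in TAM was 380 after SBRT, 535 after IL-12 and 330 after the combination, against 592 in the unirradiated group. The 2 irradiated groups were the lowest, and the IL-12 group lay nearer to the unirradiated one. In the authors' deposited table Pparg fell to 0.557 of the unirradiated level after the combination (-0.84 ± 0.25, adjusted p = 0.0244). The deposited values after SBRT (-0.64 ± 0.25, adjusted p = 0.228) and after IL-12 (-0.14 ± 0.20, adjusted p = 0.999) did not pass. With the statistics rescaled to their own spread the combination call was lost (adjusted p = 0.127). Plac8 (1.34) was called higher and F13a1 (-0.98) and Mrc1 (-0.78) lower in the same deposited comparison, and the part of these marker shifts was not tested.

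In IM, Pparg had implied levels of 262 after SBRT, 283 after IL-12 and 332 after the combination, against 351 in the unirradiated group. The authors' deposited table gave -0.42 ± 0.15 after SBRT (adjusted p = 0.317), -0.31 ± 0.15 after IL-12 (0.396) and -0.08 ± 0.15 after the combination (0.899). Nr1h3, which encodes LXR alpha (chromosome 2, 91184061 to 91202834, minus strand), was called in none of the 6 comparisons, with deposited values between -0.05 and 0.14 in TAM and between -0.21 and 0.13 in IM. A stretch of 34 exon bases of Nr1h3 overlaps Gm13783 on the same strand.

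PPAR gamma and LXR alpha bind DNA at copies of the half-site AGGTCA, usually 2 copies in a row. The 250 bases upstream of RefSeq transcript starts (build GRCm38.p6) were searched on both strands in the 11 windows available for 6 of the 10 genes (Nr1h3, Abca1, Plin2, Pparg, Apoe and Lipa). A half-site was present in 3 of the 11 windows, compared with 14% of all 32851 windows. The 3 windows are shown because they hold it, in capitals (AGGTCA, or its complement TGACCT), 2 of them upstream of Pparg, the receptor gene that fell in TAM. The first Pparg window lies at chr6:115360894-115361143 and the second at chr6:115362099-115362348, both on the plus strand, and the Plin2 window lies at chr4:86670060-86670309 on the minus strand.
Pparg first start: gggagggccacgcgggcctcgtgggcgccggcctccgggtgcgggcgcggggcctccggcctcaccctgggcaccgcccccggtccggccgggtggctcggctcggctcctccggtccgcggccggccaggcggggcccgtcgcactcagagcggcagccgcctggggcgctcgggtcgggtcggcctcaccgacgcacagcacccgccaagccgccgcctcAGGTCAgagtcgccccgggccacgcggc
Pparg second start: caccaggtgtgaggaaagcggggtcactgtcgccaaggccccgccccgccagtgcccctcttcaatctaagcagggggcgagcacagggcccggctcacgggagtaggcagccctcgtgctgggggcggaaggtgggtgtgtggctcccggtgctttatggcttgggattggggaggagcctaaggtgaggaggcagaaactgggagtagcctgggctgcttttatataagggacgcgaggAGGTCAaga
Plin2: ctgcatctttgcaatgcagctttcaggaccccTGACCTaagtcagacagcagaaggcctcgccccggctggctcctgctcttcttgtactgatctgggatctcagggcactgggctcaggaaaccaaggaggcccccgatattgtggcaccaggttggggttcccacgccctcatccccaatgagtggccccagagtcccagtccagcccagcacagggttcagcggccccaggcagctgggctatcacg
The second Pparg window is also 1 of 4 of the 11 windows with a TATA box (TATAAA on either strand, in 12.4% of all windows). In that Pparg window the match is on the opposite strand, so the printed letters read TTTATA. The paired elements DR1 (AGGTCA, 1 base, AGGTCA) and DR4 (AGGTCA, 4 bases, AGGTCA) were in 0 of the 11 windows, and in 0.0335% and 0.0152% of all windows. The gamma-activated site TTCNNNGAA was also in 0 of the 11, and in 7.02% of all windows. A match describes letters in these windows and says nothing of binding, and the half-site stands within the paired elements.

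The treatments were then set against each other within each population, with 1 standard error per gene for the 3 tables and leaving out the gain from the shared unirradiated libraries, which makes the test conservative. In TAM, 0 of the 10 genes differed for the combination minus SBRT (0.00309% of all genes called), the combination minus IL-12 (0.0741%), IL-12 minus SBRT (0.0896%) or the interaction, which takes the SBRT and IL-12 effects away from that of the combination (0.0124%). In IM, 0 of 10 differed for the combination minus SBRT (0.204%), the combination minus IL-12 (0%), IL-12 minus SBRT (0.0244%) or the interaction (0.00305%). By this normal test, an unadjusted p was below 0.05 for 0, 1, 1 and 0 of the 10 genes in TAM in that order, and for 2, 0, 1 and 1 in IM. Of all 32375 genes tested in TAM, 292, 444, 428 and 412 had such a p. Of all 32818 in IM, 752, 225, 406 and 340 did.

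Lpl gave the smallest p of the 80 such tests in TAM and IM. In IM its effect after the combination exceeded that after SBRT by 0.83 on the log2 scale (95% interval 0.31 to 1.34, adjusted p = 0.344 by the normal test over all genes). The IL-12 effect exceeded the SBRT effect by 0.85 (0.34 to 1.37, adjusted p = 0.871 by the same test). Both Lpl differences passed when the variance of the shared controls was removed (adjusted p = 0.0017 for the combination minus SBRT and 0.00322 for IL-12 minus SBRT). The Lpl effects of the combination and of IL-12 alone differed by -0.02 in IM, with a 95% interval of -0.54 to 0.49. In TAM the Abca1 effect of IL-12 minus that of SBRT was -0.69 (95% interval -1.14 to -0.24, unadjusted p = 0.0025 by the normal test), and the combination minus IL-12 was 0.57 (0.12 to 1.02). With the control variance removed these 2 Abca1 differences had adjusted p of 0.00118 and 0.025.

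Macrophages and monocytes also differed in the Lpl response to the combination. The Lpl effect of the combination was -0.31 in TAM and 0.89 in IM, a difference of -1.20 ± 0.31 (SE) on the log2 scale (95% interval -1.79 to -0.60, adjusted p = 0.0158 by the normal test over all genes). This was the only one of 30 such tests on the 10 genes to pass, and 0.914% of all genes passed for the combination. For IL-12 alone the Lpl difference was -0.97 (95% interval -1.57 to -0.37, adjusted p = 0.484 by the normal test), where 0 of 10 genes and 0.0565% of all genes passed. For SBRT it was -0.28 (-0.88 to 0.32), where 0 of 10 genes and 0.263% of all genes passed. The 10 genes had an unadjusted p below 0.05 in 1 case for SBRT, 2 for IL-12 and 2 for the combination by this test. Of all 30093 genes tested, 1555, 1056 and 2214 had such a p, in that order. Pparg after the combination was -0.84 in TAM and -0.08 in IM, a difference of -0.77 (95% interval -1.34 to -0.19, adjusted p = 0.301 by the normal test). For Plin2 the TAM minus IM differences were within -0.58 to 0.44 over their 3 intervals.

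**Figure D4:**
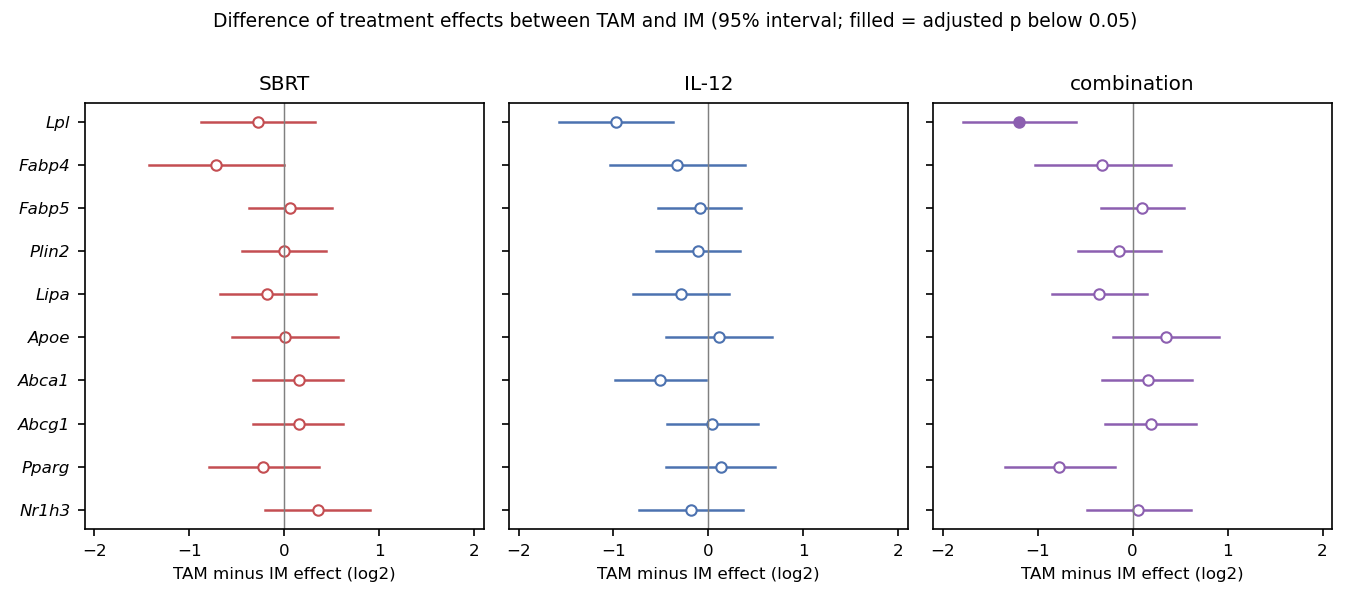
Difference of the treatment effect in TAM minus that in IM (log2, horizontal axis) with 95% intervals, 1 row per gene and 1 panel per treatment, filled where the adjusted p was below 0.05. Lpl after the combination (-1.20) is the filled point, and Lpl lies to the left of 0 in all 3 panels.

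The 2 genes whose 6 fold changes in TAM and IM were nearest to those of Lpl were Rgs1 and Cd1d2. They were sought among 458 genes with a mean level of at least 50 in both populations. Like Lpl, each of the 458 was called in exactly 2 of the 6 comparisons, so genes called in more were not candidates. Rgs1, a regulator of G protein signalling, lay at a Euclidean distance of 0.363 over the 6 log2 values, and Cd1d2, a gene of the CD1 family, at 0.413. In the authors' deposited table Rgs1 rose in IM by 0.74 after IL-12 and 1.08 after the combination, and Cd1d2 by 0.70 and 1.02.

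Beyond the 10 genes, 9 lists of lipid genes held 135 other genes with a name in the tables, of which 123 or 124 had an adjusted p in each myeloid table. In TAM 12 of them were called after SBRT (3 higher, 9 lower, 9.68% of those tested, beside 2.08% of all genes), 1 after IL-12 (0.806%, beside 0.935%) and 18 after the combination (3 higher, 15 lower, 14.5%, beside 4.21%). In IM 2 were called after SBRT (1.61%, beside 0.519% of all genes), 5 after IL-12 (4.07%, beside 3.24%) and 22 after the combination (8 higher, 14 lower, 17.7%, beside 6.72%). The IL-12 shares were near those of all genes. The median log2 fold change of these genes after the combination was -0.17 in TAM and -0.05 in IM, beside 0.0008 and -0.02 for all genes tested. Rescaling the statistics to their own spread reduced the combination counts to 8 in TAM and 8 in IM. The share of all genes called with rescaled statistics is not given here, so these 2 counts have no background beside them.

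After the combination Cd36 fell in TAM and rose in IM. It encodes a scavenger receptor that takes up fatty acids and oxidised lipoprotein. In the authors' deposited table Cd36 fell in TAM after SBRT (-1.06, adjusted p = 0.00236) and after the combination (-0.88, adjusted p = 0.0152), and in IM it rose after IL-12 (0.82 ± 0.17, adjusted p = 1.8e-04) and after the combination (0.71 ± 0.17, adjusted p = 0.00119). It was not called in TAM after IL-12 (-0.32, adjusted p = 0.969) or in IM after SBRT (-0.43, adjusted p = 0.385) in the authors' deposited table. Its TAM call after the combination was lost with rescaled statistics (adjusted p = 0.0927). The Cd36 effects of the combination, -0.88 in TAM and 0.71 in IM, differed by -1.59 (95% interval -2.17 to -0.998, adjusted p = 1.2e-04 by the normal test over all genes). Of the uptake and transport genes with an adjusted p, 15 in TAM and 14 in IM, 1 rose and 2 fell in TAM after SBRT, and 1 rose and 3 fell in TAM after the combination. In IM 1 rose and 1 fell after IL-12, and 2 rose and 2 fell after the combination. The acyl-CoA synthetase gene Acsl3 fell in IM after IL-12 (-0.61 ± 0.17) and after the combination (-0.59 ± 0.17) in the authors' deposited table. The lipoprotein receptor gene Vldlr rose in TAM in the authors' deposited table after SBRT (1.37 ± 0.27, adjusted p = 8.9e-05) and after the combination (0.82 ± 0.22). Marco, a scavenger receptor, fell in TAM after SBRT (-1.24 ± 0.25 in the authors' deposited table).

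The sterol synthesis genes that were called after the combination were lower in both populations. Of 19 such genes with an adjusted p, 5 fell and 0 rose in TAM, and 6 fell and 0 rose in IM, with medians of -0.41 and -0.33. After SBRT 3 fell in TAM (median -0.49), 1 of which was left with rescaled statistics, and 0 were called in IM (median -0.20, 3 with an unadjusted p below 0.05 in the authors' DESeq2 test). Cyp51, the lanosterol demethylase, fell in TAM after SBRT (-1.04 ± 0.17) and after the combination (-0.80 ± 0.17), and in IM after the combination (-0.84 ± 0.20), in the authors' deposited table. Msmo1, a later enzyme of the pathway, fell after the combination in TAM (-0.85) and in IM (-0.71) in the authors' deposited table. After IL-12 alone 0 of the 19 were called by the authors' DESeq2 test in either population (4 in each with an unadjusted p below 0.05), with medians of -0.16 in TAM and -0.19 in IM. Of 12 fatty acid synthesis genes with an adjusted p, 1 rose and 2 fell in TAM after SBRT and likewise after the combination. The synthase gene Fasn fell after SBRT (-0.90) and after the combination (-1.25), and the desaturase gene Scd2 rose (1.14 and 1.05), in the authors' deposited table for TAM. In IM the elongase gene Elovl6 fell after the combination in the authors' deposited table (-1.06 ± 0.22).

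Of the other efflux genes and LXR targets with an adjusted p, 14 in TAM and 15 in IM, 1 rose and 1 fell in TAM after SBRT and after the combination, while 2 fell in IM after IL-12 and 3 fell after the combination. Pltp, which transfers phospholipid between lipoproteins, fell in TAM by 0.72 after either in the authors' deposited table, and the nuclear receptor gene Nr1d1 rose by 1.02 after SBRT and 0.76 after the combination. In IM the authors' deposited table called Apoc1, an apolipoprotein gene next to Apoe, lower after IL-12 (-1.17 ± 0.23) and after the combination (-0.95 ± 0.24), and Arl4c lower in both (-0.51 and -0.71). Of 12 or 13 lipid droplet and lipolysis genes with an adjusted p, 0 were called by the authors' DESeq2 test in any of the 6 comparisons, and at most 4 (after the combination in IM) had an unadjusted p below 0.05.

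Smaller counts came from the remaining lists. Of 12 genes known from lipid-associated macrophages, Cd63 fell in IM after SBRT (-0.75 ± 0.11), Trem2, a lipid-sensing receptor, fell in IM after IL-12 (-0.53) and the combination (-0.48), and Lgals3 rose in IM after the combination (0.46), in the authors' deposited table. In TAM Cd9 fell after IL-12 (-0.85) and the combination (-0.64) and Itgax after the combination (-0.62) in the same deposited results. Of 15 fatty acid oxidation genes, Acadl (0.57) and Decr1 (0.51) rose in IM after the combination and Hadh (-0.69) fell in TAM after SBRT in the authors' deposited table. Of the 10 PPAR pathway genes with an adjusted p in IM, Ppargc1b (0.67) rose and Klf9 (-0.70) fell after the combination in the authors' deposited table. Of 15 tested lysosomal genes, Npc2 (0.24) and Gla (0.51) rose in IM and Ctsd (-0.55) fell in TAM after the combination in the authors' deposited table.

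**Figure D5:**
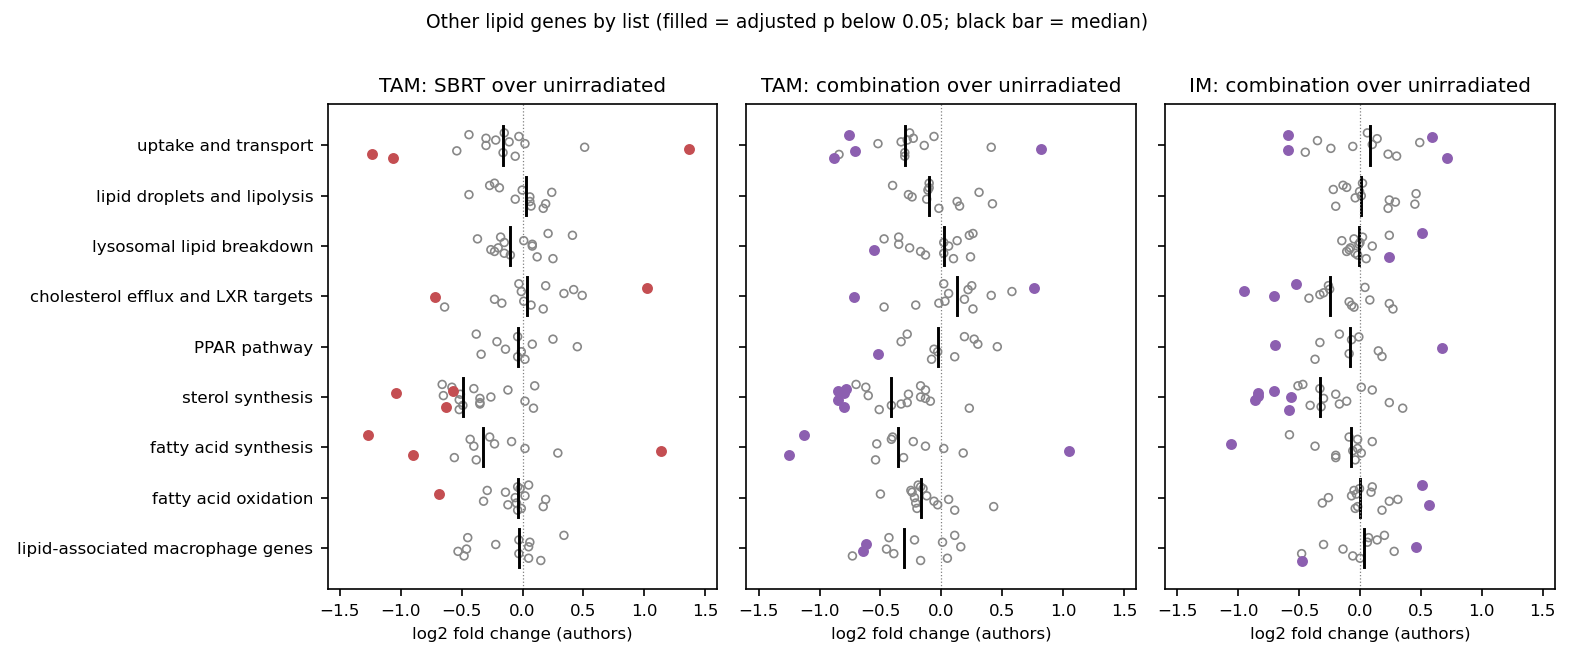
Log2 fold change (horizontal axis, the authors' values) of the other lipid genes by list in TAM after SBRT, TAM after the combination and IM after the combination, filled where the adjusted p was below 0.05, with a black bar at the median. The sterol synthesis medians are -0.49, -0.41 and -0.33 in the 3 panels, and the lipid droplet list holds no filled point.

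In CD8 T cells the highest mean levels among the 10 genes were those of Apoe (5064), Plin2 (2090), Fabp5 (1889), Lipa (1882) and Abcg1 (1289). Of the 10, 0 were called after SBRT (0.471% of all genes; 3 with an unadjusted p below 0.05 in the authors' DESeq2 test), 0 of the 8 with an adjusted p after IL-12 (2.52%; 2) and 1 of the 9 after the combination (7.47%). That gene was Fabp5, with implied levels of 2013 after SBRT, 1761 after IL-12 and 2165 after the combination, against 1618 in the unirradiated group. In the authors' deposited table Fabp5 rose after the combination by 0.42 ± 0.14 with an adjusted p of 0.04998, and the call was lost over every gene with a p (0.103) and with rescaled statistics (0.509). Apoe was at 6438 after SBRT, 4640 after IL-12 and 3605 after the combination, against 5573 in the unirradiated CD8 group, and its deposited value for the combination was -0.63 ± 0.22 (adjusted p = 0.0551). The 10 macrophage markers in the same CD8 groups summed to 7973 after SBRT, 6238 after IL-12 and 4965 after the combination, against 6822 in the unirradiated group, and their part in the Apoe values was not tested. Between treatments, 0 of the 10 genes differed in CD8 cells by the normal test for the combination minus SBRT (0.0755% of all genes), the combination minus IL-12 (0.00302%), IL-12 minus SBRT (0.0211%) or the interaction (0.00302%). By that test an unadjusted p was below 0.05 for 1, 0, 0 and 0 of the 10 genes. Of all 33127 genes tested, 1054, 440, 811 and 609 had such a p, in that order.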

How the data were processed

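RNA was sequenced from 33 libraries of TAM, IM and CD8 cells. Cells were sorted by flow cytometry and the TruSeq V2 library kit keeps no strand information, per the labels' protocols. The submitters' processing notes name build GRCm38 and the tools STAR 2.6.0c, Salmon, featureCounts, Subread, FastQC 0.11.8 and Trimmomatic 0.36, without their order. The authors deposited 9 tables of DESeq2 results, per the file headers, setting every treated group against unirradiated cells of the same population; the model formula and the shrinkage method are not given in the sources used here. The tables hold a normalised signal, which is DESeq2's mean of scaled counts, per the file headers, and did not differ between tables of 1 population. They also hold a log2 fold change, shrunken towards 0, per the file headers treated over unirradiated, a Wald score deposited by the authors, and a p-value and adjusted p-value deposited by the authors. No value per library accompanies them, so depth is unknown.

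A gene was called at a deposited adjusted p below 0.05. Differences between treatments, the interaction and TAM minus IM used the Wald statistic times 1 implied standard error per gene and population. That error was the median over 3 tables of fold change over statistic, which is not a true standard error if only the fold change was shrunken. A 2-sided normal test was followed by Benjamini-Hochberg adjustment over the whole table. These tests were also run on simulated data whose fold changes were not shrunken, so the simulation does not cover the shrinkage of the deposited ones. Python 3.11.15, scipy 1.17.1 and blastn 2.17.0 were used. The members, the lists and the rule for named genes were chosen with earlier results of these data known. The rule named all 10 members, up to 3 called genes per list in each of TAM and IM with the smallest adjusted p, and the 2 genes nearest to a member called in at least 2 of the 6 myeloid comparisons; the TAM values of Cd36 and the marker genes were named after their values were seen. Some genes of the lists are not reported here. Alternatives were adjustment over every gene with a p, genes with a mean level of at least 50, statistics rescaled to their own spread, each table's own standard error, and removal of the control variance.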

Additional observations from a re-analysis of the deposited data

Results flagged for a closer look

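The effects of a treatment in TAM and in IM were compared gene by gene for 3 treatments. Among the 10 lipid handling genes and the 135 list genes, 10 differences passed the normal test adjusted over all genes. Of all 30093 genes tested, 0.263% passed for SBRT, 0.0565% for IL-12 and 0.914% for the combination. Whether TAM and IM libraries came from the same mice is not stated, and no cause was tested for any of the differences.

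Of the 10 lipid handling genes, Lpl differed after the combination, with an effect of -0.31 in TAM and 0.89 in IM (difference -1.20). Among the other uptake genes, Cd36 differed after the combination by -1.59 (-0.88 in TAM, 0.71 in IM). After SBRT, Marco differed by -1.44 (-1.39 in TAM, 0.05 in IM) and Vldlr by 1.17 (1.15 in TAM, -0.02 in IM). Vldlr had a mean level of 149 in TAM and 5.55 in IM, with no adjusted p in any IM table, so its IM effect rests on a level close to 0 and the difference could not be tested among genes with a level of at least 50. Marco had mean levels of 3421 in TAM and 62.6 in IM. Of the efflux genes, Apoc1 differed after the combination by 1.53 (0.58 in TAM, -0.95 in IM) and Arl4c by 1.12 (0.41 in TAM, -0.71 in IM). In fatty acid synthesis, Fasn differed after the combination by -1.04 (-1.25 in TAM, -0.21 in IM) and Scd2 by 1.11 (1.05 in TAM, -0.06 in IM). Klf9, listed with the PPAR pathway, differed after the combination by 1.001 (0.30 in TAM, -0.70 in IM). Cd9, a tetraspanin of lipid-associated macrophages, differed after IL-12 by -1.40 (-0.91 in TAM, 0.49 in IM).

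The effects in this test are the statistic times the shared standard error, so they can differ from the deposited fold changes. For Marco after SBRT in TAM, the value was -1.39, beside -1.24 in the authors' deposited table. The Lpl difference kept an adjusted p of 0.0154 with each table's own standard error and 0.00875 over genes with a level of at least 50.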

How the results depend on the processing

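No paired analysis was possible because the tables hold no value per library, and for the same reason no replicate could be left out. Both Lpl calls in IM held under all 3 alternatives to the deposited adjustment (adjusted p 8.6e-05 to 0.00125 after IL-12, 6.9e-05 to 0.01 after the combination), and no difference changed sign. With p adjusted over every gene, the count of called members was 0 in place of 1 for SBRT in TAM and for the combination in CD8 cells. With rescaled statistics it was 0 in place of 1 for SBRT and for the combination in TAM and for the combination in CD8 cells. Counts of the other lipid genes under rescaled statistics were 3 in place of 1 for IL-12 and 8 in place of 18 for the combination in TAM, 3 in place of 5 and 8 in place of 22 in IM, and 0 in place of 2 for both in CD8 cells. Shares of all genes called with p adjusted over every gene or with rescaled statistics are not given here. Removing the control variance gave 1 differing member in place of 0 in 5 contrasts: Lpl in IM for the combination minus SBRT and IL-12 minus SBRT, Abca1 in TAM for the combination minus IL-12 and IL-12 minus SBRT, and Apoe in CD8 cells for the combination minus SBRT (adjusted p = 0.0205). Of 54 calls among the named genes in TAM and IM, 46 were kept over every gene with a p, 54 over genes with a level of at least 50, and 30 with rescaled statistics. The causes were not tested. The depth per library is unknown, and precision is limited by 2 or 3 libraries in each group.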
